A study of Mus musculus with 6 samples.

Results

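The genes described are the proteasome subunits and their helpers in monocytes of mice with nephrotoxic nephritis, a model in which antibodies injure the glomerulus. They were taken as every row of the raw count table whose symbol begins with Psma, Psmb, Psmc, Psmd, Psme, Psmf or Psmg followed by a digit, which gave 50 of 24047 gene rows. Of these, 14 encode the constitutive core (Psma1 to Psma7 and Psmb1 to Psmb7), 17 the regulatory particle, 3 the immunoproteasome catalytic subunits (Psmb8, Psmb9 and Psmb10) and 2 the activator PA28 (Psme1 and Psme2). Another 7 encode assembly chaperones, 3 other activators or inhibitors (Psme3, Psme4 and Psmf1) and 2 tissue-restricted subunits (Psma8 and Psmb11). The remaining 2 carry the letters of the rule without a role in these groups: Psmc3ip, whose protein acts in meiotic recombination, and Psme2b, a close copy of Psme2. The filter on low counts passed 49 of the 50, and Psmb11, the thymus subunit, did not pass.

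RNA sequencing libraries were compared between kidney monocytes (replicates 7, 8 and 22, named double_pos) and monocytes of spleen and bone marrow (replicates 2, 24 and 26, named double). All 6 libraries came from mice of strain C5/Bl6, as the labels spell it, aged 8 to 10 weeks, with nephritis induced, killed on day 13, and the labels give no other genotype or treatment. The labels name 10 mice for the series, do not name the sorting markers, and describe enrichment and sorting for kidney cells alone, so tissue and handling cannot be told apart, and no library came from a mouse without nephritis. Whether a replicate is 1 animal or a pool is not stated, and the p-values cover no more than the spread among these libraries, which may be technical.

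The proteasome is the protease of cytosol and nucleus that degrades proteins tagged with ubiquitin. Alpha and beta rings stack into a barrel, the core, and Psmb5, Psmb6 and Psmb7 are its catalytic subunits. A regulatory particle with a base of ATPases and a lid caps the barrel, recognises the tagged protein, removes the ubiquitin and unfolds the protein. Interferon gamma is known to induce Psmb8, Psmb9 and Psmb10, which replace Psmb5, Psmb6 and Psmb7 in newly built cores and so make the immunoproteasome, and the PA28 caps Psme1 and Psme2. Haematopoietic cells carry immunoproteasome without that signal, and it is known for shaping peptides for MHC class I.

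Total counts ran from 3492391 (kidney replicate 22) to 7938223 in kidney and from 7311991 to 9727489 in spleen and marrow. The 9 monocyte markers were detected in both groups, 6 were called higher and 2 lower in kidney, and they summed to between 33406 and 36009 CPM in kidney and between 43967 and 60804 CPM in spleen and marrow. CPM are counts scaled to a common library size after TMM adjustment. Kidney replicate 22 stood apart from the other kidney libraries in its granulocyte markers, of which 11 of 12 listed were detected. They summed to 1259, 4472 and 44023 CPM in kidney replicates 7, 8 and 22. Spleen and marrow replicates 2, 24 and 26 held 25529, 30120 and 31430 CPM. Of the 11 granulocyte markers tested, 0 were called higher and 3 lower in kidney. Kidney replicate 8 stood apart in 10 endothelial markers, with 28.2, 897 and 19.7 CPM in the same kidney libraries, against 5.75 to 8.50 CPM in spleen and marrow, where Tek, Ehd3 and Esam were at 0. Of 11 cycling cell markers 10 were called lower in kidney, at 50.5, 133 and 186 CPM in all, against 1135, 1027 and 1032 CPM. Of 11 kidney tubule markers 6 were tested and 5 called higher, at 533, 204 and 1283 CPM, against 0.857 to 1.505 CPM, where Lrp2, Umod, Slc12a1 and Aqp2 were at 0. T and NK cell markers summed to 7.70, 29.3 and 38.8 CPM in kidney replicates 7, 8 and 22, against 119, 96.6 and 108 CPM, which lie apart, and 0 of the 4 tested of 10 were called. In bulk libraries, fewer cells of a type and less RNA per cell cannot be told apart.

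The start regions below belong to 3 of the 5 genes that interferon gamma induces and to 2 of the 5 called lower in kidney. Psmb10, Psme2, Psmd5 and Psmd13 also had regions, which matched none of the 4 motifs and are not printed. Psmc3ip, also called lower, matched CCAAT and is not printed. They are RefSeq sequences on GRCm38.p6, from 250 bases before to 50 bases after the annotated start, in the gene's own direction. The deposited files use mm9, so they were matched by symbol and not by position. They lie at chr17:34197945-34198244 on the plus strand (Psmb8), chr17:34187281-34187580 on the minus strand (Psmb9), chr14:55578244-55578543 on the plus strand (Psme1), chr2:180042415-180042714 on the minus strand (Psma7) and chr14:45329574-45329873 on the plus strand (Psmc6). Capitals mark matches on either strand to the 4 motifs named after the sequences.
Psmb8: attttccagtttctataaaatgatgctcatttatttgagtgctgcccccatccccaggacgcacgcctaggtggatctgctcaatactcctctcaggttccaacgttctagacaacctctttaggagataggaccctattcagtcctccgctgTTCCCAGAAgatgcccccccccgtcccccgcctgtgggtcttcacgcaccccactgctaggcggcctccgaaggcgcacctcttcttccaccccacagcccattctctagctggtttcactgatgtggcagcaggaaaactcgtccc
Psmb9: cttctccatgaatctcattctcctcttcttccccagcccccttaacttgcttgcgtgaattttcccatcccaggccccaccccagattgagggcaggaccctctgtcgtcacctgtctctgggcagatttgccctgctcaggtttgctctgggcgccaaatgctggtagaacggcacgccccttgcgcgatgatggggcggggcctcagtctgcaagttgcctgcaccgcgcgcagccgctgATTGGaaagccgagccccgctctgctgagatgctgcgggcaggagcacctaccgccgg
Psme1: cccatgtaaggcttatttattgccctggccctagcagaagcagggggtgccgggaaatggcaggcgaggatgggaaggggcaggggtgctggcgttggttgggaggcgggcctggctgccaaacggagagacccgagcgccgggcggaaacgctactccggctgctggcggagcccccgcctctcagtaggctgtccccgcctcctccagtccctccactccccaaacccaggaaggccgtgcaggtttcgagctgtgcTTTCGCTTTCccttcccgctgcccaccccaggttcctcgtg
Psma7: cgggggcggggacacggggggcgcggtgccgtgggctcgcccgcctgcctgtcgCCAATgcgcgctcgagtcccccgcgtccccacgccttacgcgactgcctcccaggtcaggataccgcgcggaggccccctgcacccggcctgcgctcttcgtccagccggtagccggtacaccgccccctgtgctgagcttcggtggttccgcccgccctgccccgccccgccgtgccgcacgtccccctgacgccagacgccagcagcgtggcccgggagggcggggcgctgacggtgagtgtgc
Psmc6: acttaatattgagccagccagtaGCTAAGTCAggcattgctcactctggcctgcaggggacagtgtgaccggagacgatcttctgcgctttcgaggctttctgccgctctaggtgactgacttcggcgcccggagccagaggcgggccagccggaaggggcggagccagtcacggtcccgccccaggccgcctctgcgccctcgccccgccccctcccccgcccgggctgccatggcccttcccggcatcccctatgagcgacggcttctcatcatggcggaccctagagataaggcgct

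Of the 50 genes, 42 had a start region in the table, with 45 regions in all. The letters TTCNNNGAA, the core of an interferon gamma activated site, occurred once in the Psmb8 region, from position -97 counted from the start. They occurred in 3 of the 45 regions, or 6.67%, and in 8.3% of all 32851 regions of this length. The letters GAAA, any 2 bases and GAAA again, the core of an interferon regulatory factor site, occurred in Psme1 from position 10 after the start, and in 5 of 45 regions (11.1%), against 3.44% of all regions. The other 4 with these letters were Psmb3, Psmd4, Psmd9 and Psmg4. The letters TGACNNNGC, the core of the element bound by NRF factors, occurred in the Psmc6 region from position -227 and in 6 of 45 regions (13.3%), against 12.4% of all. The pentamer CCAAT occurred in Psma7 from position -196, in Psmb9 from position -8 and in 15 of 45 regions (33.3%), against 37.4% of all. Each of the 5 printed regions held matches to 1 of the 4 motifs, so no match overlaps one of another motif. A match describes letters and is not shown to be a site.

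The comparison sets proteasome transcripts of monocytes in the nephritic kidney against those in marrow, where monocytes form, and spleen, where they are held. No member was called higher in kidney, and 5 were called lower: the alpha ring subunit gene Psma7, the ATPase gene Psmc6, the lid gene Psmd13, the chaperone gene Psmd5 and Psmc3ip. Called means an adjusted p under 0.05 in edgeR's quasi-likelihood test with Benjamini-Hochberg adjustment over all 10626 genes tested. Over all genes 5.9% were called lower and 7.83% higher. At an unadjusted p under 0.05, 17 members were lower and 0 higher, against 12.5% and 15.4% of all genes, and DESeq2, limma-voom and each of the other alternatives called 0 members higher.

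The share of all genes called also moved with the setting. Of all genes, DESeq2 called 9.36% lower and 11% higher, where 11 members were lower. Limma-voom called 7.89% lower and 6.94% higher. With edgeR, RLE scaling gave 5.93% lower and 7.53% higher, library totals 5.11% and 8.5%, a robust fit 5.99% and 7.74%, and thinning to the smallest total 5.42% and 7.68%. No filter gave 3.88% lower and 5.51% higher, and a filter of 1 CPM in 3 libraries 5.88% and 7.9%. On the log2(FPKM + 1) scale 8.38% were lower and 5.21% higher, on log2(FPKM + 0.1) 7.34% and 5.21%, and with no FPKM filter 1.28% and 0.811%. Without kidney replicate 7, 8 or 22 the lower calls were 4.48%, 5.38% and 11.1% and the higher calls 8.15%, 8.52% and 14.3%. Without spleen and marrow replicate 2, 24 or 26 the lower calls were 1.84%, 1.84% and 1.59% and the higher calls 2.57%, 2.53% and 2.31%, and with replicates 24 and 26 summed 1.78% and 2.65%.

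The members leaned to lower levels in kidney by small amounts. The log2 fold change, kidney over spleen and marrow, was below 0 for 42 of 49 members, with a median of -0.33, while it was below 0 for 47.3% of all genes, with a median of 0.05. The groups did not overlap in CPM, with every kidney library lower, for 19 of the 49, and for 18.8% of all genes. They did not overlap with kidney higher for 0 of 49, against 19.2% of all genes. The members were chosen with earlier results known, and no test over the list was made. All 50 genes together took 1.12%, 1.34% and 1.25% of the counts of kidney replicates 7, 8 and 22, against 1.64%, 1.37% and 1.41% in spleen and marrow replicates 2, 24 and 26. The groups overlapped by CPM in 30 members, and spleen and marrow replicate 2 was the highest of its group in 45 of 49. How often replicate 2 was the highest over all genes was not counted.

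**Figure D1:**
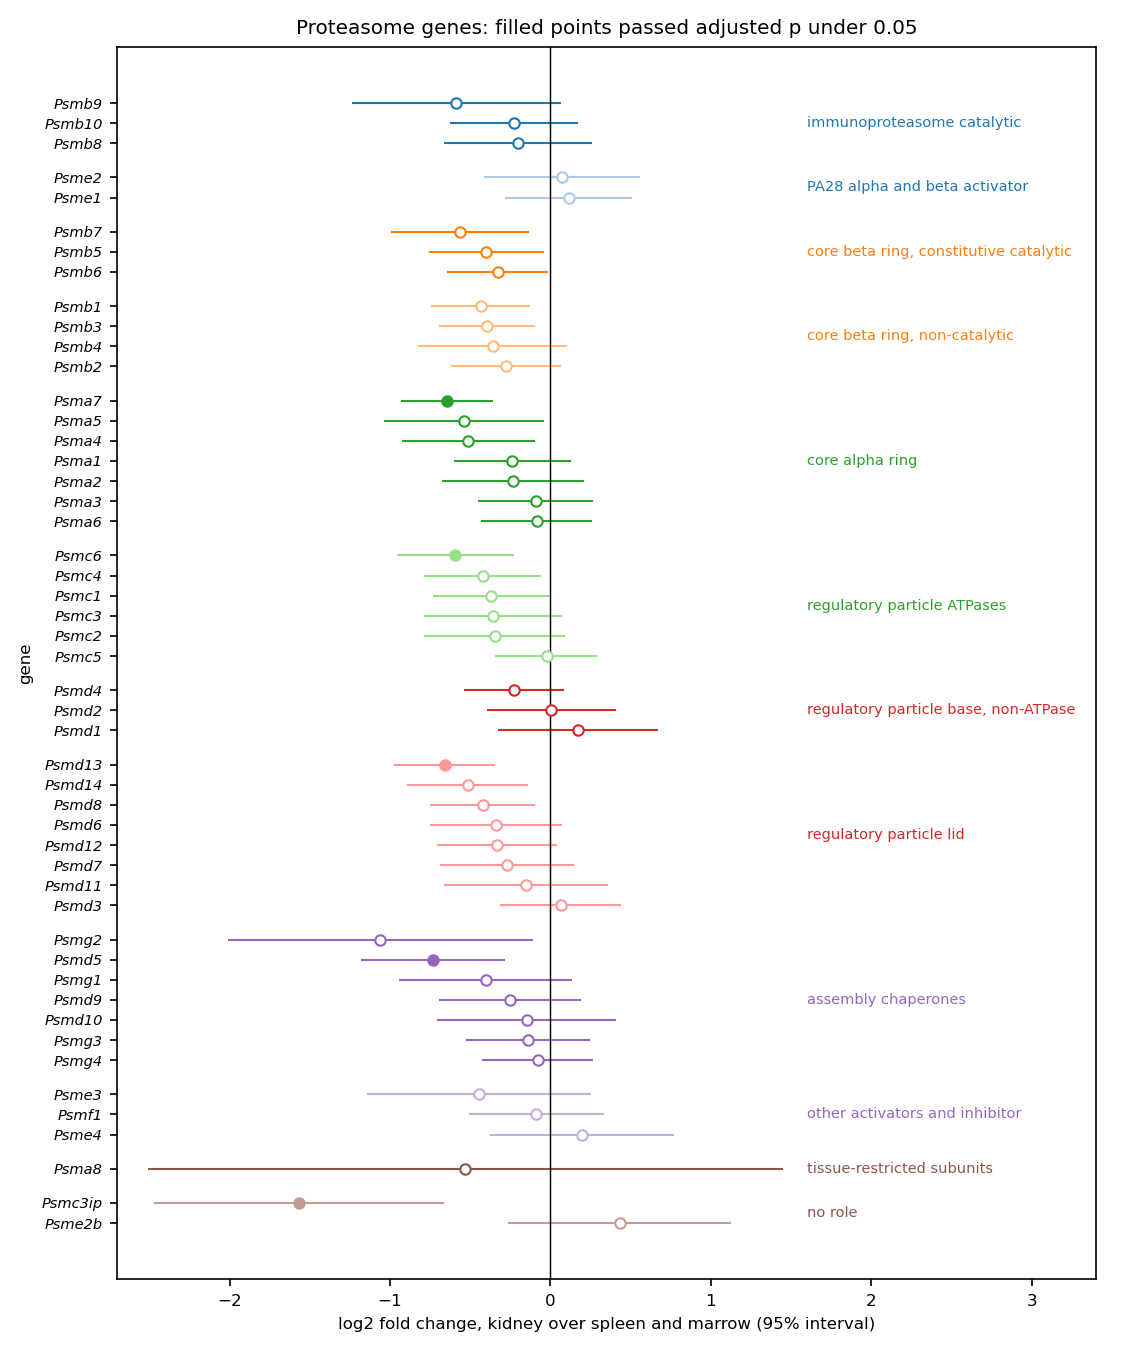
Log2 fold change of each of the 49 tested members, kidney over spleen and marrow, on the horizontal axis, with its 95% interval, by role down the page, and filled where the edgeR adjusted p was under 0.05. The 14 constitutive core genes all lie left of 0, while Psme1 and Psme2 lie just right of it, with intervals that span 0.

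In the constitutive core all 14 genes had a log2 fold change below 0, with a median of -0.38. Without kidney replicate 7 or without spleen and marrow replicate 2, 13 of 14 lay below 0. Psma7, 1 of 14, was called lower, against 5.9% of all genes. Psma7, an alpha ring subunit, had 965, 1109 and 1025 CPM in kidney replicates 7, 8 and 22, against 1773, 1477 and 1591 CPM in spleen and marrow replicates 2, 24 and 26. The groups were well apart. The log2 fold change was -0.64 ± 0.12 (SE, adjusted p by edgeR = 0.0138). The call held in 14 of 18 alternatives, was lost without spleen and marrow replicate 26 (adjusted p by edgeR = 0.0686) and in all 3 fits on FPKM, and ranged from 0.000101 to 0.194 over the alternatives. Psma5 and Psma4, also of the alpha ring, stood at -0.54 ± 0.22 and -0.51 ± 0.18 on the log2 scale and were not called (adjusted p by edgeR = 0.151 and 0.105), with groups that did not overlap. Psma6 and Psma3 lay nearest to 0, at -0.09 each. DESeq2 called 4 core genes lower (Psma7, Psmb1, Psmb3 and Psmb7), and limma-voom 2 (Psma7 and Psmb1), against 9.36% and 7.89% of all genes. Without kidney replicate 8 the count was 3, without kidney replicate 22 it was 2, and without spleen and marrow replicate 26 it was 0. The shares of all genes called lower in these settings were 5.38%, 11.1% and 1.59%.

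The constitutive catalytic subunits were lower in each kidney library than in each spleen and marrow library, and none was called. Psmb5, which carries the chymotrypsin-like activity, had 107, 132 and 132 CPM in kidney replicates 7, 8 and 22, against 181, 150 and 157 CPM in spleen and marrow replicates 2, 24 and 26. Its log2 fold change was -0.40 ± 0.15 (SE, adjusted p by edgeR = 0.138). Psmb6, with the caspase-like activity, had 553, 644 and 576 CPM in kidney, against 839, 666 and 722 CPM, a log2 fold change of -0.33 ± 0.14 (adjusted p by edgeR = 0.163). For this gene kidney replicate 8 came close to the lowest spleen and marrow library. Psmb7, with the trypsin-like activity, had 135, 181 and 119 CPM in kidney, against 238, 195 and 212 CPM, a log2 fold change of -0.56 ± 0.19 (adjusted p by edgeR = 0.0888, and 0.0281 without kidney replicate 8). Of the non-catalytic beta subunits, Psmb1 and Psmb3 stood at -0.43 ± 0.13 and -0.40 ± 0.13 on the log2 scale and were not called (adjusted p by edgeR = 0.0712 and 0.0846).

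Summed over the core, kidney replicates 7, 8 and 22 held 5632, 6496 and 6842 CPM, against 9160, 7431 and 7934 CPM in spleen and marrow replicates 2, 24 and 26, so the groups did not overlap. Cycling cell markers and the core sum were both lowest in kidney replicate 7 among the 6 libraries and higher in each spleen and marrow library than in any kidney library. The part of cycling cells in the core difference was not tested. The granulocyte sum was highest of the 6 in kidney replicate 22 and lowest in kidney replicate 7, and its part was not tested either.

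**Figure D2:**
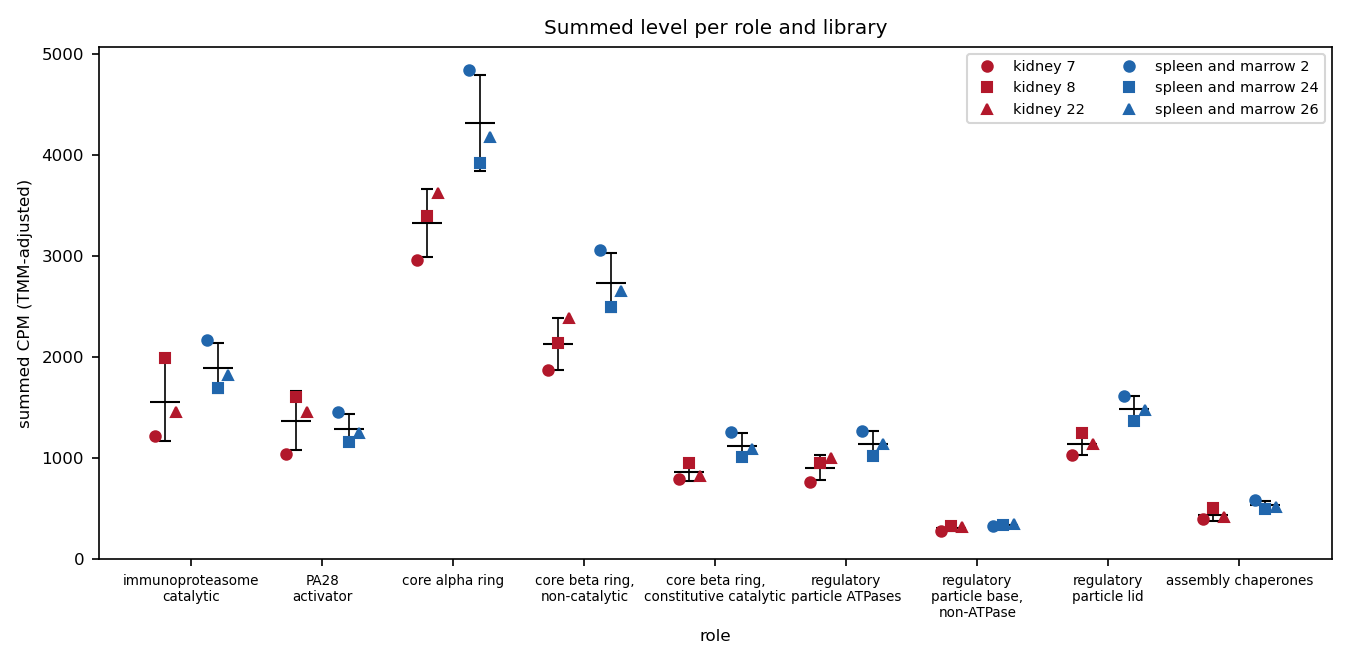
Summed CPM of the genes of each role, with 1 point per library and the mean and SD (n = 3) of each group as black bars, kidney in red and spleen and marrow in blue. The alpha ring and the constitutive catalytic subunits do not overlap between the groups, whereas the immunoproteasome and PA28 sums do.

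None of the 3 immunoproteasome catalytic subunits was called, all 3 had a log2 fold change below 0, and their groups overlapped. Psmb8, which takes the place of Psmb5, had 633, 1070 and 800 CPM in kidney replicates 7, 8 and 22, against 1083, 874 and 926 CPM in spleen and marrow replicates 2, 24 and 26. Kidney replicate 8 lay just under the highest spleen and marrow library, while kidney replicates 7 and 22 lay below all 3. The log2 fold change was -0.20 ± 0.20 (SE, adjusted p by edgeR = 0.563), with a 95% interval from -0.67 to 0.26. Psmb9, which takes the place of Psmb6, had 160, 352 and 266 CPM in kidney, against 477, 334 and 357 CPM, a log2 fold change of -0.59 ± 0.28 (adjusted p by edgeR = 0.222, interval -1.24 to 0.07). Here kidney replicate 8 lay above spleen and marrow replicate 24. Psmb10, which takes the place of Psmb7, had 432, 569 and 396 CPM in kidney, against 612, 484 and 538 CPM, a log2 fold change of -0.23 ± 0.17 (adjusted p by edgeR = 0.441, interval -0.62 to 0.17). None of the 18 alternatives called any of the 3 in either direction, and a missed threshold does not show that the levels are alike.

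Both genes of PA28, the ring that opens the core without ATP, had log2 fold changes above 0 without a call. Psme1 had 443, 581 and 680 CPM in kidney replicates 7, 8 and 22, against 563, 493 and 518 CPM in spleen and marrow replicates 2, 24 and 26. Its log2 fold change was 0.11 ± 0.17 (SE, adjusted p by edgeR = 0.72, interval -0.28 to 0.51). Psme2 had 603, 1030 and 775 CPM in kidney, against 892, 667 and 730 CPM, a log2 fold change of 0.07 ± 0.21 (adjusted p by edgeR = 0.863, interval -0.42 to 0.56). For both genes the kidney libraries spanned the spleen and marrow range on either side. The signs are not stable, since both turned below 0 in the 3 fits on FPKM (-0.031 for Psme1 and -0.035 for Psme2). Psme1 also turned without kidney replicate 22 (-0.055) and Psme2 without kidney replicate 8 (-0.15), without spleen and marrow replicate 24 (-0.039) and with replicates 24 and 26 summed (-0.017). Psme2b, the copy, had 19.7, 28.7 and 42.3 CPM in kidney, against 24.5, 20.8 and 21.4 CPM, and reads may be split between it and Psme2.

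Among the kidney libraries, replicate 8 had the highest value of 4 of the 5 inducible genes (Psmb8, Psmb9, Psmb10 and Psme2), of 26 of all 49 tested members, and of 30.3% of all genes tested. Psme1 was highest in replicate 22, and replicate 7 was the lowest in 34 of 49 members. How often replicate 7 was the lowest over all genes was not counted. The highest kidney CPM was 1.69, 2.19 and 1.44 times the lowest for Psmb8, Psmb9 and Psmb10, with a median of 1.69 over the 3, while the median of that ratio was 1.29 over the core, 1.26 over the regulatory particle and 1.93 over all genes. Endothelial markers were also highest in kidney replicate 8. Their part in the values of Psmb8, Psmb9 and Psme2 was not tested.

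**Figure D3:**
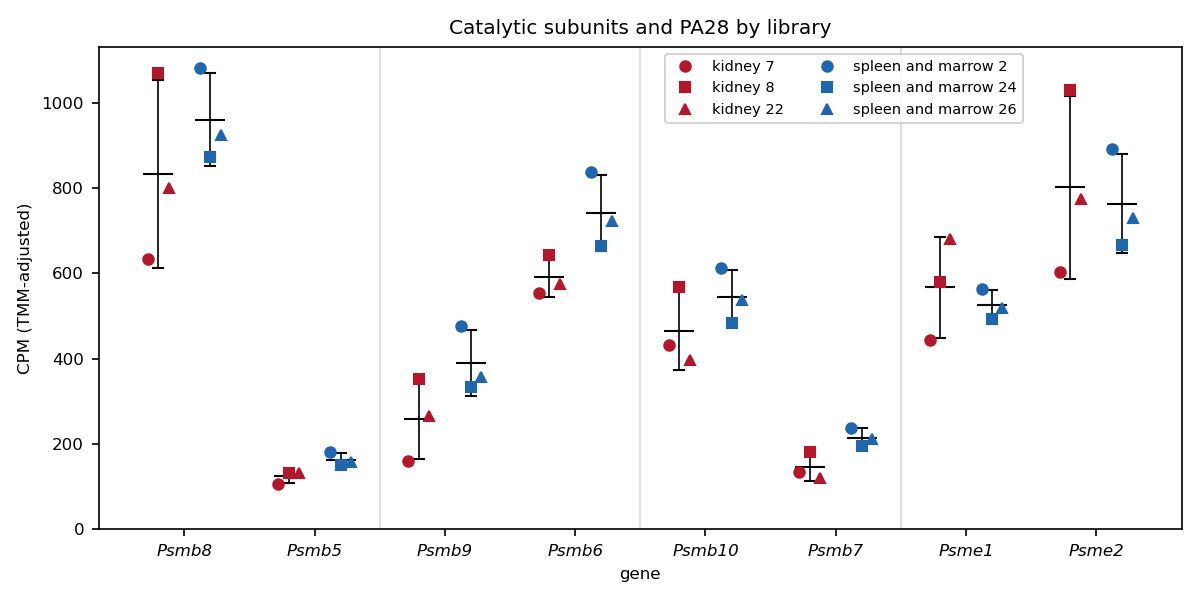
CPM of each immunoproteasome catalytic gene beside the constitutive gene whose place its protein takes, and of both PA28 genes, with 1 point per library and the mean and SD (n = 3) of each group as black bars. The red kidney points of Psmb5, Psmb6 and Psmb7 lie below all blue spleen and marrow points, while those of Psmb8, Psmb9, Psmb10, Psme1 and Psme2 overlap them.

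A ratio of 2 genes within a library does not depend on scaling, so each immunoproteasome gene was set against its constitutive partner. Psmb10 over Psmb7 was 3.20, 3.14 and 3.32 in counts in kidney replicates 7, 8 and 22, against 2.57, 2.49 and 2.54 in spleen and marrow replicates 2, 24 and 26. All 3 kidney libraries were higher, by 0.34 on the log2 scale (SD 0.04 in kidney and 0.03 in spleen and marrow), which is 1.27-fold. Psmb10 itself was not higher in kidney (log2 fold change -0.23), and Psmb7 stood lower, at -0.56. Psmb8 over Psmb5 was 5.92, 8.09 and 6.08 in kidney, against 5.98, 5.82 and 5.88, a difference of 0.17 that shrank to 0.03 without kidney replicate 8. Psmb9 over Psmb6 was 0.290, 0.546 and 0.462 in kidney, against 0.569, 0.501 and 0.495, a difference of -0.32 that shrank to -0.05 without kidney replicate 7. In the exact two-sided permutation test over libraries the p-values were 0.1 for Psmb10 over Psmb7, 0.2 for Psmb8 over Psmb5 and 0.4 for Psmb9 over Psmb6, or 0.3, 0.3 and 0.4 adjusted over the 3 pairs. With 3 libraries against 3 this test cannot go below 0.1, so no pair could pass. Psmb10 over Psmb7 lay above the spleen and marrow range in all 3 kidney libraries, Psmb8 over Psmb5 in replicates 8 and 22, and Psmb9 over Psmb6 in none. On FPKM Psmb8 over Psmb5 was 1.540, 2.070 and 1.636 in kidney, against 1.481, 1.538 and 1.512, so by that unit it too lay above the spleen and marrow range in all 3 kidney libraries, by little in replicate 7 (exact two-sided permutation p = 0.1, or 0.15 adjusted over the 3 pairs). On FPKM the differences were 0.20, -0.33 and 0.37 for Psmb8 over Psmb5, Psmb9 over Psmb6 and Psmb10 over Psmb7.

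Set against the core sum of the same library, PA28 was higher in each kidney library. Psme1 and Psme2 together came to 18.6%, 24.8% and 21.3% of the core counts in kidney replicates 7, 8 and 22, against 15.9%, 15.6% and 15.7% in spleen and marrow replicates 2, 24 and 26. The groups did not overlap in this share. The PA28 sum itself overlapped, at 1046, 1611 and 1455 CPM in the same kidney libraries, against 1456, 1160 and 1249 CPM. The core sum, by which it is divided, was lower in each kidney library. The 3 immunoproteasome genes came to 21.8%, 30.7% and 21.4% of the core in kidney, against 23.7%, 22.8% and 23.0%, with the kidney values on both sides. The regulatory particle came to 37.0%, 38.9% and 36.1% of the core in kidney, against 35.2%, 36.7% and 37.4%, which overlap. The alpha ring came to 111%, 110% and 113% of the constitutive beta ring in kidney, against 112%, 112% and 112%, which overlap. These shares are descriptions without a test.

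**Figure D4:**
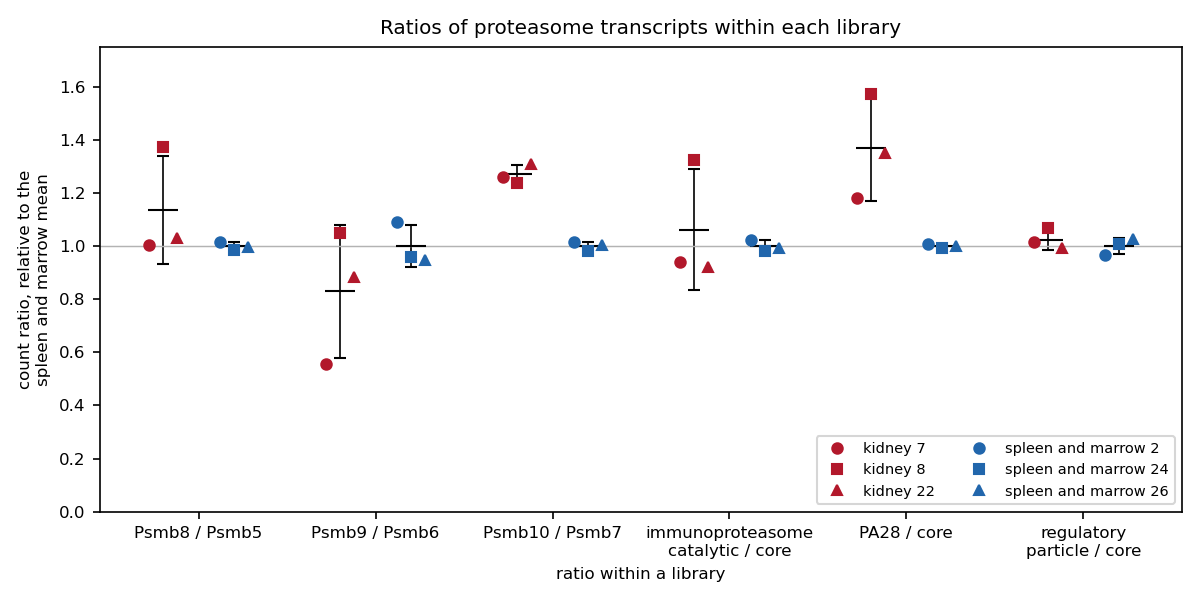
Ratios of counts within each library, divided by the mean of the spleen and marrow libraries for display, with 1 point per library and the mean and SD (n = 3) of each group as black bars. Psmb10 over Psmb7 and PA28 over the core lie above all spleen and marrow points in the 3 kidney libraries, and the other ratios overlap.

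Levels between genes were compared on the authors' FPKM, which divide by transcript length. Summed over the 3 genes of each kind, immunoproteasome and constitutive catalytic transcripts were of similar abundance in both groups. Within pairs they were unequal. Psmb8 exceeded Psmb5 and Psmb10 exceeded Psmb7 in every library, while Psmb9 lay below Psmb6. The 3 immunoproteasome genes made up 49.4%, 57.8% and 54.3% of the FPKM of the 6 catalytic genes in kidney replicates 7, 8 and 22, against 52.9%, 52.5% and 52.4% in spleen and marrow replicates 2, 24 and 26. Psmb8 had 360 ± 135 FPKM in kidney and 440 ± 46.8 FPKM in spleen and marrow (n = 3 per group, SD), and Psmb5 had 202 ± 42.6 FPKM and 292 ± 36.5 FPKM. Psmb9 had 176 ± 81.8 FPKM in kidney and 287 ± 56.0 FPKM in spleen and marrow, below Psmb6 at 330 ± 76.7 FPKM and 447 ± 54.6 FPKM. Psmb10 had 218 ± 67.5 FPKM in kidney and 264 ± 28.6 FPKM in spleen and marrow, above Psmb7 at 99.9 ± 35.3 FPKM and 155 ± 16.3 FPKM.

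Counts of several catalytic genes are uncertain. Summed over the libraries, 1 FPKM corresponded to 4.42 counts for Psmb5, against 13.1 for Psmb6, 11.1 for Psmb7 and 17.1 for Psmb8, so Psmb8 over Psmb5 was 5.92 by count and 1.54 by FPKM in kidney replicate 7. In GENCODE M21 a microRNA gene lies within exon sequence of Psmb5, and Psmb5, Psmb6 and Psmb7 have 4 processed copies in the genome between them. On the opposite strand Psmb7 shares 405 exon bases with Nek6, Psmb8 498 with Gm20496 and Psmb9 212 with Tap1, so each of the 3 pair ratios holds a gene with such an overlap. The libraries do not mark strand, so reads of these overlaps cannot be assigned to either gene. In all, 15 of the 50 genes share exon bases with another gene in that annotation, among the called genes Psmd13 with Sirt3 and Psmc3ip with Mlx.

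The spread of levels within the core exceeded the difference between the groups. Psma7 was the most abundant core gene in both, at 656 ± 150 FPKM in kidney and 1094 ± 99.0 FPKM in spleen and marrow, and Psma5 the least abundant of the alpha ring, at 113 ± 35.5 FPKM and 174 ± 34.5 FPKM. Psme2 had 844 ± 315 FPKM in kidney and 834 ± 124 FPKM in spleen and marrow, so it exceeded Psma7 in the kidney mean and not in the spleen and marrow mean. Psme2 had 682, 1207 and 642 FPKM and Psma7 671, 797 and 499 FPKM in kidney replicates 7, 8 and 22, against 974, 735 and 793 FPKM for Psme2 and 1202, 1008 and 1073 FPKM for Psma7 in spleen and marrow replicates 2, 24 and 26. Psme2 was thus the higher of the pair in each kidney library, by little in replicate 7, and Psma7 in each spleen and marrow library. On the FPKM scale the median log2 fold change of all genes was -0.16, against 0.05 in the count test, and the core median was -0.51, against -0.38.

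**Figure D5:**
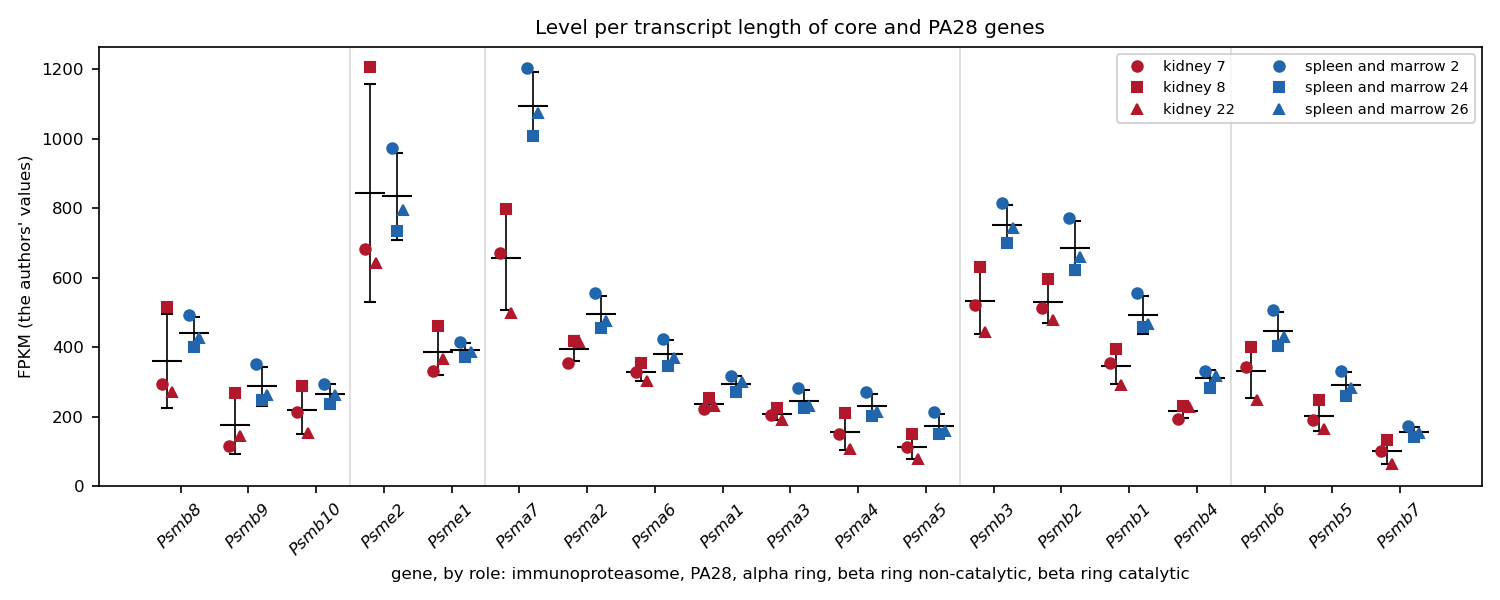
The authors' FPKM of core, immunoproteasome and PA28 genes, ordered within each role by the spleen and marrow mean, with 1 point per library and the mean and SD (n = 3) of each group as black bars. Psma7 and Psme2 stand highest, and the alpha ring spans a wide range although the complex holds its subunits in equal number.

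In the regulatory particle 14 of 17 genes had a log2 fold change below 0, with a median of -0.34. Of the 17 genes 2 were called lower, against 5.9% of all genes. Psmc6, an ATPase of the ring that unfolds the substrate, had 77.6, 85.0 and 92.8 CPM in kidney replicates 7, 8 and 22, against 144, 115 and 125 CPM in spleen and marrow replicates 2, 24 and 26. Its log2 fold change was -0.59 ± 0.16 (SE, adjusted p by edgeR = 0.0439). Psmd13, of the lid, had 87.0, 98.4 and 94.6 CPM in kidney, against 154, 141 and 147 CPM, a log2 fold change of -0.66 ± 0.14 (adjusted p by edgeR = 0.0178). Neither pair of groups overlapped. The call of Psmd13 was lost without spleen and marrow replicate 2, 24 or 26 (adjusted p by edgeR = 0.0748, 0.0764 and 0.1; range over the alternatives 0.00016 to 0.177). That of Psmc6 was lost when kidney replicate 7 or 8 was left out (0.0984 and 0.0857) and when 2, 24 or 26 of spleen and marrow was (0.149, 0.102 and 0.152; range 0.00846 to 0.152). With no library left out, the Psmc6 call was also lost under RLE scaling, library totals and thinning (adjusted p by edgeR = 0.0521, 0.0504 and 0.0974). Both calls were lost in the 3 fits on FPKM and with replicates 24 and 26 summed. The call held in 11 of 18 alternatives for Psmd13 and in 6 of 18 for Psmc6. Of the 17, DESeq2 called 4 lower (Psmc6, Psmd8, Psmd13 and Psmd14), against 9.36% of all genes.

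The other regulatory particle genes were ranged by role. Psmd14, the deubiquitinase of the lid, had a log2 fold change of -0.52 ± 0.16 (SE, adjusted p by edgeR = 0.0768) and Psmd8, the most abundant lid transcript, -0.42 ± 0.14 (adjusted p by edgeR = 0.0907). Psmc3, the ATPase gene with the highest FPKM averaged over both groups, though Psmc5 was higher in the kidney mean (70.7 FPKM for Psmc3 and 71.4 FPKM for Psmc5), stood at -0.36 ± 0.19 (adjusted p by edgeR = 0.259), and Psmc5 at -0.023 ± 0.14. Psmd4, a ubiquitin receptor, had 193, 237 and 211 CPM in kidney replicates 7, 8 and 22, against 236, 248 and 267 CPM in spleen and marrow replicates 2, 24 and 26, which overlap. The scaffold genes Psmd1 and Psmd2 lay at 0.17 ± 0.22 and 0.0057 ± 0.17, and the lid gene Psmd3 at 0.06 ± 0.16. These 3 were the genes of the particle above 0.

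Of 7 assembly chaperones, all had a log2 fold change below 0 and 1 was called lower, against 5.9% of all genes. Psmd5, which holds ATPases of the base during assembly, had 21.3, 23.6 and 21.7 CPM in kidney replicates 7, 8 and 22, against 39.0, 33.5 and 38.3 CPM in spleen and marrow replicates 2, 24 and 26. The log2 fold change was -0.73 ± 0.19 (SE, adjusted p by edgeR = 0.044). The call was lost when kidney replicate 7 or 8 was left out (adjusted p by edgeR = 0.0816 and 0.0557). It was lost too without spleen and marrow replicate 2, 24 or 26 (0.159, 0.121 and 0.192). Library totals as the scale (0.0591), no filter (0.0568), the 3 fits on FPKM and replicates 24 and 26 summed also lost it. It held in 7 of 18 alternatives, and the adjusted p ranged from 0.00568 to 0.192 over them. Psmg2, which pairs with Psmg1 to build the alpha ring, had 31.6, 49.7 and 13.2 CPM in kidney, against 78.7, 59.5 and 61.4 CPM. Its log2 fold change was -1.06 ± 0.41 (adjusted p by edgeR = 0.138, and 0.0395 without kidney replicate 8). The lowest library was kidney replicate 22, which is also the shallowest, with 45 counts. Psmg4, the most abundant chaperone transcript per length, stood at -0.08 ± 0.15 and turned to 0.0084 without kidney replicate 7.

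The activators outside PA28 alpha and beta did not pass the test. Psme3, the nuclear PA28 gamma, had 44.6, 64.7 and 27.0 CPM in kidney replicates 7, 8 and 22, against 70.6, 55.5 and 60.3 CPM in spleen and marrow replicates 2, 24 and 26, a log2 fold change of -0.44 ± 0.30 (SE, adjusted p by edgeR = 0.387). Psme4, the PA200 cap, stood at 0.20 ± 0.25 and Psmf1, which binds the core, at -0.09 ± 0.18. Psma8, of the testis core, had 9, 14 and 0 counts in kidney, against 14, 11 and 13 counts. Psmb11 had 8, 0 and 0 counts in kidney and 0 in each spleen and marrow library, where 3 counts would be 0.322 to 0.41 CPM. Psmc3ip, the recombination gene, had 6.64, 11.1 and 4.405 CPM in kidney, against 28.4, 18.5 and 20.0 CPM, the lowest log2 fold change of the 49 at -1.57 ± 0.39 (adjusted p by edgeR = 0.0356). Its call was lost when kidney replicate 7 (0.0899) or 2, 24 or 26 of spleen and marrow was left out (0.166, 0.102 and 0.122). It held in 12 of 18 alternatives, and the adjusted p ranged from 0.00208 to 0.166 over them.

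Genes that feed or control the proteasome were read from lists made with earlier results known. Of 26 tested partners outside the rule 2 were called higher and 1 lower in kidney, against 7.83% and 5.9% of all genes. Their median log2 fold change was -0.16. Nfe2l1, the transcription factor that restores proteasome synthesis after inhibition, had 37.2, 27.7 and 29.7 CPM in kidney replicates 7, 8 and 22, against 16.1, 16.1 and 14.7 CPM in spleen and marrow replicates 2, 24 and 26. Its log2 fold change was 1.01 ± 0.23 (SE, adjusted p by edgeR = 0.024). The groups did not overlap. Shfm1, a small lid subunit whose symbol lies outside the rule, had a log2 fold change of -0.42 ± 0.11 (adjusted p by edgeR = 0.0429). Neither call held with replicate 2, 24 or 26 of spleen and marrow left out. The highest adjusted p among these was 0.144 for Nfe2l1 and 0.156 for Shfm1. Without kidney replicate 7 the adjusted p was 0.0561 for Nfe2l1 and 0.101 for Shfm1, and without kidney replicate 8 it was 0.113 for Shfm1. DESeq2 called 2 partners higher and 5 lower, limma-voom 2 and 3, and edgeR without kidney replicate 22 called 3 and 4. The shares of all genes in these settings were 11% higher and 9.36% lower, 6.94% and 7.89%, and 14.3% and 11.1%. Over all alternatives the adjusted p ran from 0.000723 to 0.319 for Nfe2l1 and from 0.00626 to 0.217 for Shfm1.

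Of 12 genes of interferon gamma signalling 3 were called higher in kidney and 0 lower, against 7.83% and 5.9% of all genes. Their median log2 fold change was 0.41. Socs1, a feedback inhibitor of the receptor kinases, had 12.9, 29.7 and 38.5 CPM in kidney replicates 7, 8 and 22, against 9.19, 6.16 and 6.11 CPM in spleen and marrow replicates 2, 24 and 26, a log2 fold change of 1.90 ± 0.44 (SE, adjusted p by edgeR = 0.0262). The receptor chain Ifngr1 rose by 0.71 ± 0.19 (adjusted p by edgeR = 0.0423) and the regulatory factor Irf2 by 0.61 ± 0.16 (adjusted p by edgeR = 0.0417). None of these calls held with replicate 2, 24 or 26 of spleen and marrow left out (adjusted p up to 0.131, 0.142 and 0.191), Ifngr1 and Irf2 also missed without kidney replicate 7 (0.0905 and 0.0721) and Socs1 without kidney replicate 8 (0.0627). Over all alternatives the adjusted p ran from 0.00081 to 0.168 for Socs1, from 0.00448 to 0.451 for Ifngr1 and from 0.00337 to 0.328 for Irf2. Irf1, a direct inducer of Psmb9, was chosen for mention after its values were seen. It had 110, 154 and 103 CPM in kidney, against 83.0, 80.4 and 78.2 CPM, with groups apart and a log2 fold change of 0.60 ± 0.19 that missed the threshold (adjusted p by edgeR = 0.0729).

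Of 13 genes of class I peptide loading edgeR called 0 in either direction, and their median log2 fold change was 0.47. At an unadjusted p under 0.05 by edgeR, 4 were higher and 0 lower, against 15.4% and 12.5% of all genes. DESeq2 called 1 higher, against 11% of all genes, and limma-voom 0, against 6.94%. B2m, the class I light chain, stood at 0.27 ± 0.18 (SE, adjusted p by edgeR = 0.384). The heavy chain H2-D1, chosen after its values were seen, stood at 0.18 ± 0.14 (adjusted p by edgeR = 0.448), with groups that overlap and with 576 FPKM in kidney and 577 FPKM in spleen and marrow on average. The heavy chain H2-K1, with 288 FPKM in kidney and 211 FPKM in spleen and marrow, stood at 0.54 ± 0.17 (adjusted p by edgeR = 0.075, and 0.0451 without kidney replicate 7). H2-K1 had 878, 1325 and 960 CPM in kidney replicates 7, 8 and 22, against 735, 713 and 733 CPM in spleen and marrow replicates 2, 24 and 26. Its groups did not overlap, unlike those of Psmb8, Psmb9 and Psmb10. Over all genes, 19.2% lay apart in CPM with kidney higher.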

How the data were processed

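Whole-number raw counts per gene symbol and FPKM values were deposited for 6 libraries. The submitters' processing notes name build mm9, Cufflinks 2.2.1, STAR 2.5 and bcl2fastq 2.18 without their roles. What counted the reads, and against which annotation, is not given in the sources used here. The deposited FPKM values fill 24043 rows and the deposited counts 24047. Per the labels' protocols, SMART-Seq v4 cDNA from 2 ng of RNA was sheared to about 150 bp.

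Counts were filtered with filterByExpr, scaled with TMM and tested with edgeR 4.0.16 (R 4.3.3; quasi-likelihood, two-sided), kidney over spleen and marrow, and the procedure was tested on simulated data. The standard error is the log2 fold change divided by the square root of F, and intervals use the test's degrees of freedom. The members, gene lists, roles and tests were chosen with earlier results of these data known. The named genes are the called members, the inducible genes and their partners, the largest change and highest FPKM per role, and up to 3 called genes per list and direction (or the 2 most abundant). Genes named beyond these illustrate a count or role, and were chosen after their values were seen. Of the genes this rule takes, 1 is not reported here. Cell markers were summed as CPM. Of 28 listed partners 26 had a row.

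There were 18 alternatives: DESeq2 1.42.0, RLE or no scaling, 2 other filters, limma-voom (limma 3.58.1), a robust fit, limma-trend on log2(FPKM + 1), with and without a filter at FPKM of 1, and on log2(FPKM + 0.1), leaving out each replicate, summing spleen and marrow replicates 24 and 26, and thinning to the smallest total. Intervals cover the spread between libraries, and a floor of 3 counts (0.322 to 0.881 CPM) covers counting error only. Figures were drawn with matplotlib 3.10.9.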

Additional observations from a re-analysis of the deposited data

How the results depend on the processing

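The number of members called lower in kidney, 5 of 49, depended on the processing, while the number called higher stayed at 0 in all 18 alternatives, as it did for the core, the regulatory particle and the inducible genes. It was 11 with DESeq2, 3 with library totals as the scale, 1 with log2(FPKM + 1) or log2(FPKM + 0.1), 0 with log2(FPKM + 1) and no filter, and 1 with spleen and marrow replicates 24 and 26 summed. On leaving out 1 library it ran from 0 (without spleen and marrow replicate 26) to 6 (without kidney replicate 8 or 22). The share of all genes called lower moved as well. It was 9.36% with DESeq2, 5.11% with library totals and 1.78% with replicates 24 and 26 summed. On the FPKM scales it was 8.38% with log2(FPKM + 1), 7.34% with log2(FPKM + 0.1) and 1.28% with no filter. Without kidney replicate 8 or 22 it was 5.38% and 11.1%, and without spleen and marrow replicate 26 it was 1.59%. The core count, 1, became 4 with DESeq2, 2 with limma-voom, 0 in the 3 fits on FPKM and 0 to 3 on leaving out 1 library. The regulatory particle count, 2, became 4 with DESeq2, 1 with RLE scaling, library totals or thinning, 0 in the 3 fits on FPKM, 0 with replicates 24 and 26 summed, and 0 to 2 on leaving out 1 library. The causes were not tested. Leaving out or summing libraries also leaves fewer to test. Of the named genes' fold changes under the alternatives, 423 kept direction and side of the threshold, 91 lost the call, 12 gained it and 11 reversed. The reversed values are those of Psme1 (-0.031 on each FPKM scale, and -0.055 to 0.27 on leaving out 1 library), Psme2 (-0.035 on each FPKM scale, -0.017 with replicates 24 and 26 summed, and -0.15 to 0.25 on leaving out 1 library) and Psmg4 (-0.17 to 0.0084 on leaving out 1 library). The pair ratios kept their direction on FPKM and without each library, from 0.03 to 0.25 for Psmb8 over Psmb5, from -0.51 to -0.05 for Psmb9 over Psmb6 and from 0.32 to 0.36 for Psmb10 over Psmb7 on leaving out 1 library. No paired analysis was possible because the groups share no replicate number. Depth limits Psmb11 and Psma8, which held at most 14 counts in a library.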
